A study of Mus musculus with 17 samples.

Results

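The skeletal muscle genes described here are 31 genes chosen by name and found by symbol among the 34682 genes of a count table from mouse limb buds. They comprise 3 genes of migrating muscle progenitors (Pax3, Pax7, Lbx1), 6 regulators and surface genes of myoblasts (Myf5, Myod1, Myog, Myf6, Mef2c, Cdh15), 18 contractile and cytoskeletal genes, and 4 genes of the muscle membrane and its energy supply (Chrna1, Chrnd, Chrng, Ckm). Of the 31, 30 had counts and 29 passed the filter on low counts. Myh8, a perinatal myosin heavy chain, had 0 counts in every library, which allows up to 0.0833 CPM (counts scaled to library size after TMM normalization) in the shallowest of the 4 wild-type (WT) libraries, and Ckm, muscle creatine kinase, had between 1 and 11 counts.

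PolyA RNA was sequenced from limb buds of E12.5 embryos, with 34486256 to 53711742 counts in each of 15 libraries. The groups were WT (4 libraries), the duplications Dup-C (2) and Dup-L (2), Dup-LΔBor (4), which joins Dup-L with the boundary deletion ΔBor, and ΔBor in heterozygous (het, 2) and homozygous (hom, 1) form. The rearrangements lie at the Sox9-Kcnj locus on chromosome 11, where RefSeq also places 3 of the 31 genes, Myh3, Myh8 and Myl4. The labels give neither the zygosity of the duplications nor whether forelimb or hindlimb was taken. They do not say whether replicates came from separate embryos, so p-values measure the spread between these libraries, which may be technical. Column headers hold library numbers in 2 ranges, called the first and second batch here: the first (9 libraries) holds Dup-C, Dup-L, both forms of ΔBor and WT 1 and 2, and the second (6 libraries) holds WT 3 and 4 and all Dup-LΔBor libraries (R2 to R5). The headers do not say what the libraries of a range shared.

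Limb muscle comes from cells that leave the somites under Pax3, migrate into the bud with the help of Lbx1, and then start the bHLH factors Myf5 and Myod1. Myog (myogenin) takes these myoblasts into differentiation, and the fibres that form assemble actin, myosin, troponin, titin and nebulin into sarcomeres and place acetylcholine receptors at the membrane. Members of the MyoD family bind E-boxes, short sites of the form CANNTG, often together with MEF2 proteins or, at actin genes, with serum response factor at CArG boxes.

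RefSeq promoter windows (build GRCm38.p6) were matched for 23 of the 31 genes. The windows below are the 250 bases before the start of 4 genes of differentiated muscle and of Myog. They are shown as examples of windows with and without the E-box CAGCTG or a CArG box, and MEF2 sites are not marked. Lower case marks the reference sequence, and capitals mark CANNTG E-boxes and, in Acta1 alone among them, a CArG box (CC, 6 bases of A or T, GG).
Chrna1, chr2:73580339-73580588, minus strand: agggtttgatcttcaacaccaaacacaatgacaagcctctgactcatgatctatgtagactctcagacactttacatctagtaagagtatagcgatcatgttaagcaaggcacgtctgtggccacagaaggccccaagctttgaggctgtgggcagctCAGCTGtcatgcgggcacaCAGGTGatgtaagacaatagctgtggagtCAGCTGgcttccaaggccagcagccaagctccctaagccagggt
Chrng, chr1:87205561-87205810, plus strand: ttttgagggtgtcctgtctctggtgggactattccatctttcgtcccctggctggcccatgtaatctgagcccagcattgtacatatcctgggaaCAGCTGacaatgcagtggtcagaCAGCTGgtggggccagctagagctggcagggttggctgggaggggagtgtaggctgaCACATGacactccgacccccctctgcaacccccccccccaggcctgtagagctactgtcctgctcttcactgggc
Mylpf, chr7:127211358-127211607, plus strand: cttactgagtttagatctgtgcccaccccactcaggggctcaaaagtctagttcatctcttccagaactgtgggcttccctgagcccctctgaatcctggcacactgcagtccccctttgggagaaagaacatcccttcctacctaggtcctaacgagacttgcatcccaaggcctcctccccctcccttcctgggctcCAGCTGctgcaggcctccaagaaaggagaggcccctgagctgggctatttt
Acta1, chr8:123894776-123895025, minus strand: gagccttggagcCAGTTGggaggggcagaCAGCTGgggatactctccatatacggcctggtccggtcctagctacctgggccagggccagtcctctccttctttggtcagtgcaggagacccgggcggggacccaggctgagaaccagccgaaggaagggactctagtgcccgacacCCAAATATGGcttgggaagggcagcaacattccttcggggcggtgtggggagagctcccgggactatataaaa
Myog, chr1:134289754-134290003, plus strand: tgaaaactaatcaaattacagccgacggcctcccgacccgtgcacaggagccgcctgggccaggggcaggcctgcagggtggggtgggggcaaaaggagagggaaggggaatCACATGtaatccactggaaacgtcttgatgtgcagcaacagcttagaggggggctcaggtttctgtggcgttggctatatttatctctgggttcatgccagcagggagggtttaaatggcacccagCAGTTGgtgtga
Chrna1 and Chrng, subunits of the fetal acetylcholine receptor, each held 2 copies of the E-box CAGCTG, which reads the same on both strands. In Chrna1 their first bases stood 92 and 44 bases before the start, and in Chrng 155 and 132. Mylpf, a fast regulatory myosin light chain, held 1 copy 51 bases before its start, and Acta1, skeletal alpha-actin, held 1 copy 221 bases before and its CArG box 73 bases before. Myog held 2 E-boxes of other letters. Among all matched members, 10 of 28 windows held CAGCTG (35.7%), against 13.0% of 32851 windows of the same length. CANNTG, which contains CAGCTG, was in 82.1% of the members' windows and 66.2% of all. The CArG box was in the windows of Acta1 and Actc1 (7.14% of the members' windows, 1.47% of all). A strict MEF2 motif was in the windows of Myh8 and Ttn (7.14% of the members' windows, 1.69% of all) and in none of those shown. Looser MEF2 sites were not searched. No CAGCTG was found in the windows of Myh7, Ttn, Tnnc1 and Tnnc2, whose levels are described below with those of the genes shown. A match of letters describes these windows and shows no binding.

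The differentiated products of muscle were well detected in WT, and the progenitor genes were scarce. On the FPKM scale, which allows levels of different genes to be compared per length, Actc1, cardiac alpha-actin and the main actin of young skeletal muscle, was highest at 152 ± 48.3 FPKM (SD, n = 4). Mylpf followed at 93.0 ± 42.7, Tnnc1, the slow and cardiac troponin C, at 54.5 ± 21.2, and Tnnt1, slow troponin T, at 42.1 ± 11.7 FPKM. Tnni1 (37.7 FPKM), Acta1 (37.0), Myl1 (36.5) and Myh3 (36.0) lay within each other's SD. Myog stood at 23.3 ± 6.66 and Myod1 at 9.40 ± 1.30 FPKM. At the low end were Myf5 (1.44 ± 0.461 FPKM), Lbx1 (1.32 ± 0.0954), Pax7 (0.613 ± 0.0411), Pax3 (0.193 ± 0.0499) and Myf6, a regulator of late differentiation (0.173 ± 0.0814). Actin and myosin genes have close paralogs, and how reads that match several of them were counted is unknown here, since no source used names the counting method.

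Markers of other tissues were checked beside these levels. The limb mesenchyme gene Prrx1 lay between 471 and 916 CPM in the 15 libraries. Nkx2-5, which defines heart muscle, had 0 counts in 14 libraries and 0.0209 CPM in Dup-LΔBor R2. The 8 cardiac markers summed to 4.60 to 12.3 CPM, and some were found in every library, such as Tnni3 (1.43 to 3.26 CPM), Gata4 (0.591 to 2.46 CPM) and Myh6. Their part in the levels of Actc1, Tnnt2, Tnnc1 and Myh7, which heart also makes, was not tested. Of the smooth muscle markers, Myh11 stayed between 0.322 and 1.54 CPM and Cnn1 between 0.108 and 0.716 CPM. Acta2, smooth muscle actin, ranged from 49.3 to 155 CPM.

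The contractile genes varied several-fold from library to library, also within a genotype. Acta1 stood at 30.4, 57.8, 71.6 and 100 CPM in WT 1 to 4, at 31.4 and 28.2 in Dup-C, and at 27.8 and 30.0 in Dup-L. In Dup-LΔBor R2 to R5 it was at 118, 52.7, 84.0 and 38.4 CPM, in the ΔBor het libraries at 19.8 and 42.8, and in ΔBor hom at 16.9 CPM. Dup-L lay just under the lowest WT library, Dup-C at its level, and Dup-LΔBor R2 and R4 stood above R3 and R5.

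Myh3, the embryonic myosin heavy chain, ranked the libraries similarly: WT 1 to 4 held 151, 274, 221 and 339 CPM. It was at 142 and 142 CPM in Dup-C, at 142 and 192 in Dup-L, and at 375, 179, 325 and 150 in Dup-LΔBor R2 to R5. The ΔBor het libraries had 137 and 223 CPM, and ΔBor hom had 107, the lowest of all 15. All 17 contractile genes with counts and all 3 receptor genes were lowest in ΔBor hom, and each was highest in WT 4, Dup-LΔBor R2 or Dup-LΔBor R4. In bulk tissue, fewer muscle cells and less of these RNAs in each cell cannot be told apart.

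The width of this spread differed between genes. From the lowest to the highest library, Acta1 changed 7.03-fold, Myh7 6.88-fold, Chrng 5.16-fold and Tnnc2, the fast troponin C, 5.02-fold. Ttn, the giant spring protein titin, spanned 33.6 to 164 CPM (4.88-fold), and Tnni1 spanned 15.8 to 74.4 CPM (4.70-fold). Des, the intermediate filament desmin, spanned 11.6 to 36.7 CPM. Among the 17 contractile genes Tnnt1 was the narrowest, from 23.3 to 63.2 CPM (2.71-fold). Myog, the regulator upstream of these genes, spanned 3.15-fold and Pax3 2.27-fold.

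**Figure D1:**
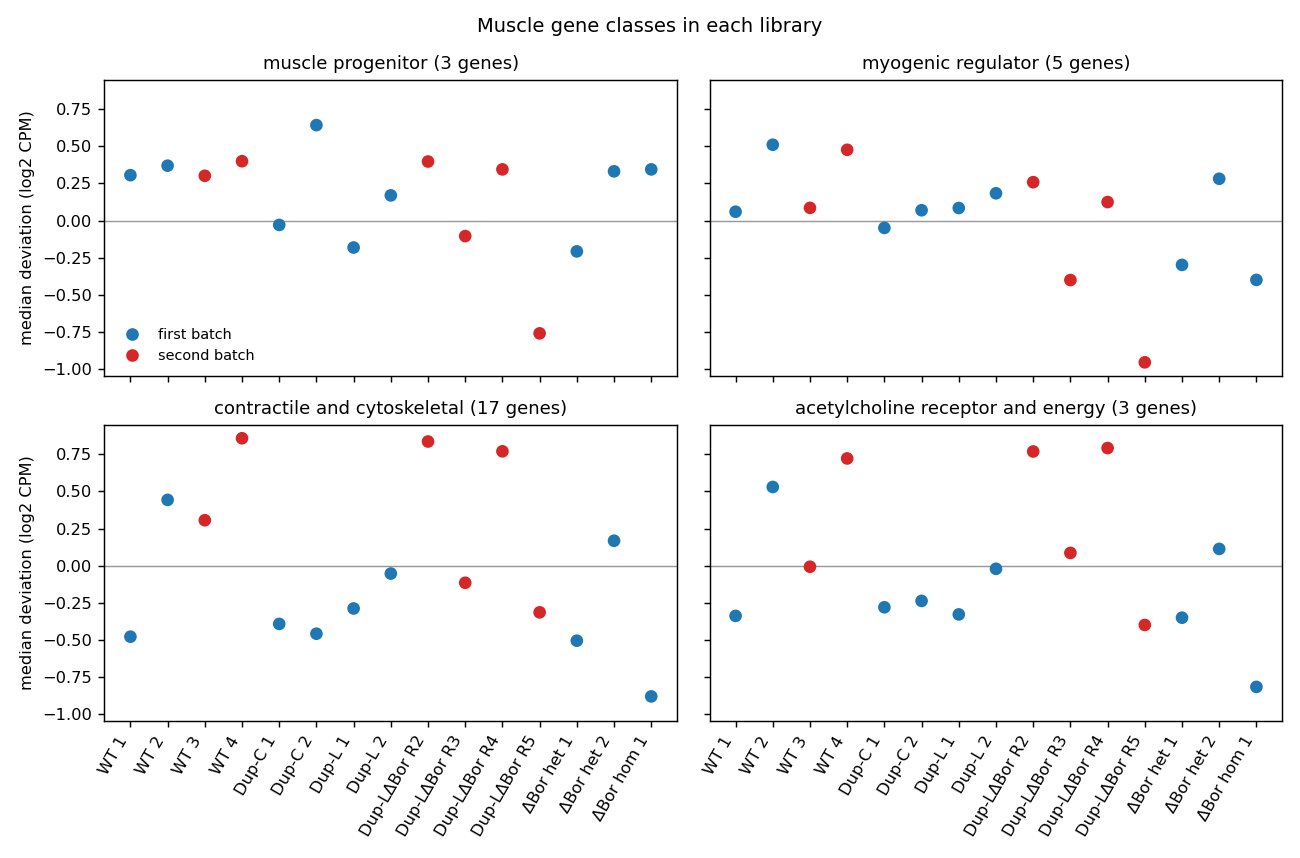
For each of the 4 groups of muscle genes, the points give each library's median deviation, over the genes with a mean of at least 0.3 CPM, from that gene's mean over all 15 libraries (vertical axis, log2 CPM), coloured by batch. Contractile genes were highest in WT 4 (0.86), Dup-LΔBor R2 (0.84) and R4 (0.77) and lowest in ΔBor hom (-0.88), while the regulators and progenitors were lowest in Dup-LΔBor R5 (-0.95 and -0.76).

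Most progenitor and regulator genes did not share that order over all libraries together. Cdh15 came closest to it, at its highest in Dup-LΔBor R2 (27.7 CPM) and its lowest in ΔBor het 1 (8.94 CPM). Myod1 was lowest in Dup-LΔBor R5 (7.24 CPM) and highest in ΔBor het 2 (26.5 CPM), a library in the middle of the contractile range. Myog ranged from 16.2 CPM in Dup-LΔBor R5 to 51.1 CPM in WT 2. Pax7, the marker of resident muscle progenitors, ranged from 1.09 CPM in Dup-LΔBor R5 to 3.47 CPM in ΔBor het 2. Pax3 spanned the narrow range of 0.972 (WT 4) to 2.20 CPM (Dup-C 2), on 35 to 88 counts a library. In ΔBor hom, at the bottom for contractile genes, the progenitors differed among themselves: Pax3 was at 1.93 and Lbx1 at 1.21 CPM, and Pax7 at 1.65 CPM lay below all 4 WT libraries. The 3 summed to 4.79 CPM there and to 5.22 to 5.85 CPM in WT.

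Likeness to Myh3 was measured across the 15 libraries on the log2 CPM scale for the other 28 tested members and for Acta2 and Myh6, 30 relations in all. The 16 other contractile and cytoskeletal genes had Pearson's r between 0.704 (Tnnt3, fast troponin T) and 0.977 (Tnnt2), with Spearman's rho of 0.632 to 0.968. The largest adjusted p among them, by permutation with 100000 resamples and Benjamini-Hochberg over the 30, was 0.00584 for r and 0.0181 for rho. Most like Myh3 were Tnnt2, cardiac and embryonic troponin T (r = 0.977, rho = 0.925), Myh7, the slow myosin heavy chain (r = 0.974, rho = 0.968), and Actc1 (r = 0.971, rho = 0.929). The raw permutation p of r was 1e-05 for each of the 3, the smallest that these resamples can give.

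The 3 receptor genes went with them, at r = 0.967 for Chrng, the fetal gamma subunit, 0.963 for Chrna1 and 0.913 for Chrnd. Cdh15, M-cadherin of myoblasts, had r = 0.861, and Myod1 had r = 0.594 (rho = 0.721, adjusted permutation p of r 0.0226). Myog had r = 0.542 (adjusted permutation p 0.0442), with rho = 0.5 (adjusted permutation p 0.0686). Pax7 (r = 0.436), Lbx1 (0.372), Myf5 (0.278), Myf6 (0.091) and Pax3 (-0.193) did not pass the adjusted permutation test. Without WT 4 and Dup-LΔBor R2, the 2 libraries farthest from the median of Myh3, r of the contractile genes was at least 0.560 and that of Myog 0.559. Acta2 had r = 0.947 and Myh6, a cardiac myosin heavy chain found between 1.1 and 6.87 CPM, r = 0.882.

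Within the batches, r with Myh3 was above the pooled value in both for 4 of the 6 regulators. Myog had r = 0.941 over the 9 libraries of the first batch and 0.937 over the 6 of the second. Myod1 had 0.695 and 0.854, Myf5 0.662 and 0.877, and Myf6 0.379 and 0.656. Cdh15 (0.697 and 0.969) and Mef2c (0.524 and 0.653) lay below their pooled r in the first batch and above it in the second. The progenitor gene Pax7 had 0.883 and 0.687. The contractile genes kept r of 0.745 to 0.968 in the first batch and 0.867 to 0.994 in the second. Lbx1 had r = 0.009 in the first batch and 0.874 in the second, and Pax3 -0.221 and 0.439. No difference between the batches in r was tested.

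**Figure D2:**
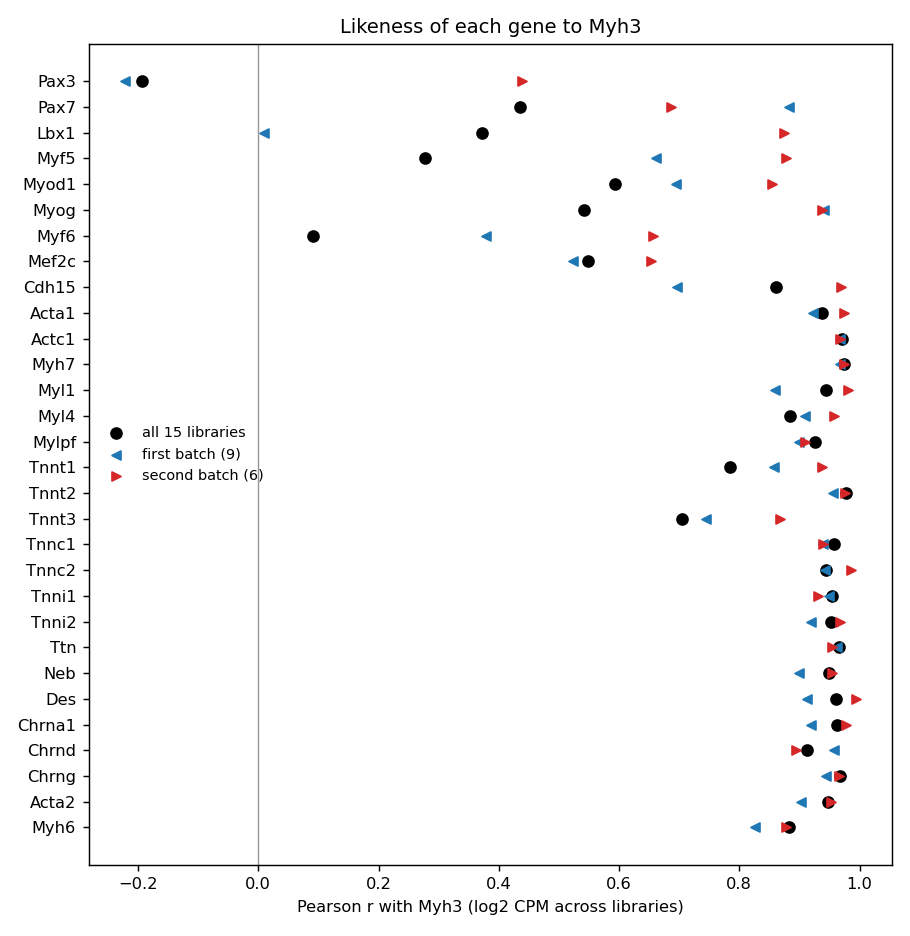
Each row gives a gene's Pearson's r with Myh3 across libraries (horizontal axis, from log2 CPM): black for all 15 libraries, blue for the first batch, red for the second. Contractile and receptor genes sit at high r in all 3 sets, while for Myog the pooled value (0.542) lies left of both batch values (0.941 and 0.937).

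Relative to Myog, most contractile genes separated the libraries by batch. Of the 17, 15 had a ratio to Myog that was higher in all 6 libraries of the second batch than in all 9 of the first, beside 2.08% of all genes tested. Tnnt1 and Tnnt3 over Myog overlapped. Relative to Myod1, 3 of the 17 separated in this way (Acta1, Tnnc2 and Tnni2), beside 0.634% of all genes tested. Acta1 over Myod1, a ratio of CPM within a library, lay between 1.22 and 2.73 in the first batch and between 3.85 and 5.97 in the second. WT stood on both sides of that gap: the ratio was 1.80 and 2.73 in WT 1 and 2, and 4.01 and 4.54 in WT 3 and 4. The 4 Dup-LΔBor libraries had 5.97, 3.85, 4.87 and 5.30, and ΔBor hom had the lowest value, 1.22.

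Tnni1 (slow troponin I) over Myog also fell into ranges without overlap, 0.649 to 0.888 in the first batch and 1.41 to 1.91 in the second. Here WT 3 was the highest of all, at 1.91. WT 4 and Dup-LΔBor R2 both stood at 1.74, beside 0.667 and 0.773 in WT 1 and 2. Myh3 over Myog lay between 4.16 and 5.37 in the first batch and between 7.83 and 11.2 in the second. The lowest ratio of the second batch was above the highest of the first by 1.41 times for Acta1 over Myod1, 1.59 times for Tnni1 over Myog and 1.46 times for Myh3 over Myog. With each gene's GC and length trend taken out of every library, these became 1.40, 1.90 and 1.46 times.

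Of the 10 ratios between Myf5, Myod1, Myog, Mef2c and Cdh15, 1 separated the batches: Cdh15 over Myog lay between 0.292 and 0.5 in the first and between 0.561 and 0.828 in the second. Myog over Myod1 lay between 1.77 and 2.97 in the first batch and between 1.5 and 2.40 in the second. Myod1 over Pax7 lay between 5.82 and 8.43 in the first and between 5.72 and 11.2 in the second. Tnni1 over Tnni2, slow over fast troponin I, overlapped as well (6.53 to 8.85 and 6.34 to 9.59).

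**Figure D3:**
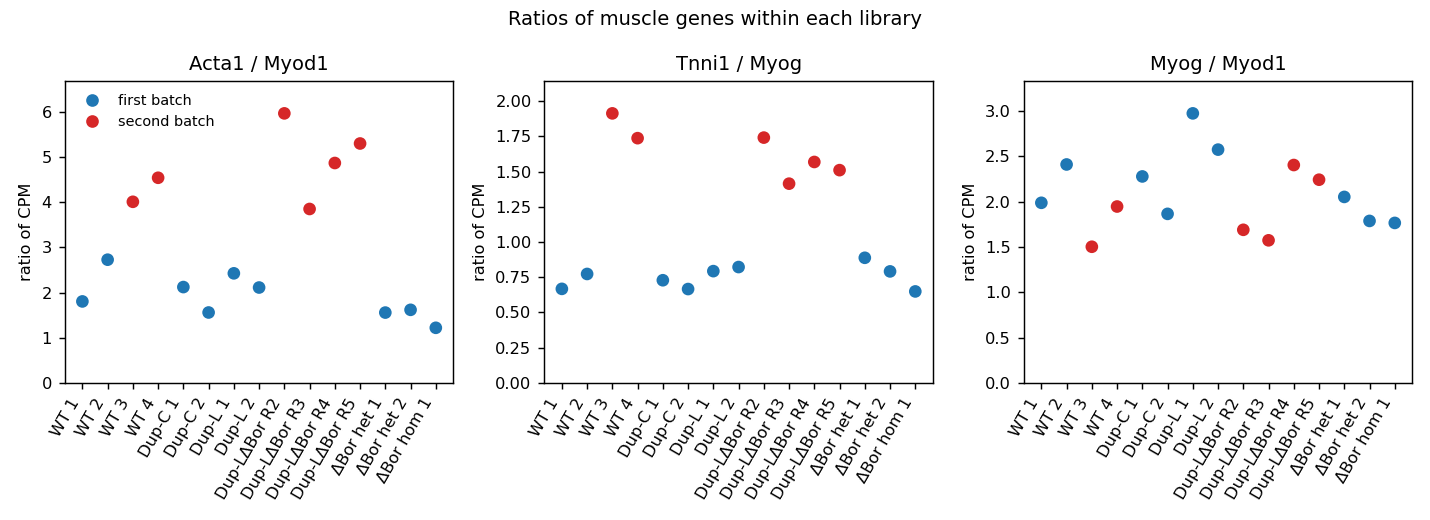
Ratios of CPM within each library (vertical axes start at 0), coloured by batch. Acta1 over Myod1 and Tnni1 over Myog lie lower in all 9 libraries of the first batch than in all 6 of the second, with WT on both sides, and Myog over Myod1 overlaps.

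For Dup-LΔBor and WT these ratios were compared as single values by exact two-sided permutation tests on log2 ratios. Over 4 against 4 libraries, Acta1 over Myod1 differed by 0.68 (exact p = 0.0857), and within the second batch, over 4 against 2, by 0.21 (exact p = 0.400). With 4 against 2 libraries this test can give no p under 0.05. Tnni1 over Myog differed by 0.44 (exact p = 0.400) and, within the second batch, by -0.23 (exact p = 0.267). Among WT libraries alone, the batch term of the edgeR fit put 0 of 29 members past the adjusted threshold of 0.05, beside 3.91% of all 17655 genes tested. At an unadjusted p under 0.05 there were 2, Mylpf (log2 fold change 1.03, SE 0.423) and Tnni1 (1.02, SE 0.459), and 25 of the 29 were higher in the second batch. The members' median was 0.34, and that of all genes -0.001.

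Pitx1, which specifies hindlimb, divided the libraries in another way. It stood at 59.8 and 70.1 CPM in WT 1 and 3 and at 1.83 CPM in both WT 2 and WT 4. In Dup-L it was at 0.518 and 0.677 CPM, and in the other 9 libraries between 39.9 and 116 CPM. Tbx5, the forelimb factor, was at 184 to 234 CPM in the 4 libraries low in Pitx1 and at 86.2 to 136 CPM in the others. Tbx4, its hindlimb counterpart, was at 18.8 to 27.6 CPM in those 4 and at 62.2 to 109 CPM in the others.

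In each batch the WT library low in Pitx1 had more muscle RNA than the one high in it. WT 2 exceeded WT 1 in all 17 contractile genes, with a median ratio of 1.87 (1.48 to 2.53), and 22 of 29 members were at least 1.5-fold higher, beside 13.3% of all genes. WT 4 exceeded WT 3 in all 17, with a median ratio of 1.44 (1.13 to 1.92), and 12 of 29 members were at least 1.5-fold higher, beside 11.5% of all genes. Tnnt3 had the largest ratio in both pairs (2.53 and 1.92), and no member was 1.5-fold lower in either. The same ratios were 1.52 and 1.60 for Myog, 0.957 and 1.18 for Lbx1, and 0.940 and 0.880 for Pax3, the progenitor genes lying closer to 1 than Myog. Each pair is 1 library against 1, with no replicate check.

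Dup-L, with the lowest Pitx1, lay between these WT libraries for most contractile genes. In 13 of the 17 both Dup-L libraries were above WT 1, and in 16 both were below WT 2. Mylpf had 50.4 and 59.3 CPM in Dup-L, beside 38.8 CPM in WT 1 and 64.5 CPM in WT 2. Acta1 (27.8 and 30.0 CPM) lay below WT 1 (30.4 CPM), while Tnnt3 (12.1 and 13.3 CPM) lay beside WT 2 (12.9 CPM). Because Pitx1 falls into separate clusters, no correlation was taken over all libraries. Within the 11 libraries high in Pitx1, 3 relations were computed with permutation p-values adjusted over them. Pitx1 and Myh3 had r = 0.112 (adjusted permutation p 0.747) and rho = -0.009 (adjusted permutation p 0.989). Pitx1 and Myog had r = 0.568 (adjusted permutation p 0.102) and rho = 0.282, and r = 0.237 without the 2 libraries farthest from the median of Pitx1. Pitx1 and Lbx1 had r = 0.610 (adjusted permutation p 0.102) and rho = 0.073, and r fell to -0.491 without those 2. Within the first (n = 6) and second (n = 5) batch, r was 0.451 and 0.410 for Myh3, 0.648 and 0.482 for Myog, and 0.591 and 0.769 for Lbx1.

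The genotypes were then compared in 1 edgeR fit over all 15 libraries and 17655 genes, with Benjamini-Hochberg adjustment over all of them and a threshold of 0.05. The 5 comparisons with WT share the WT libraries, and Dup-L is the control of 2 others, so that they are not independent. Lbx1 and Mef2c were the only members to pass in any of the 7 comparisons of that fit.

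**Figure D4:**
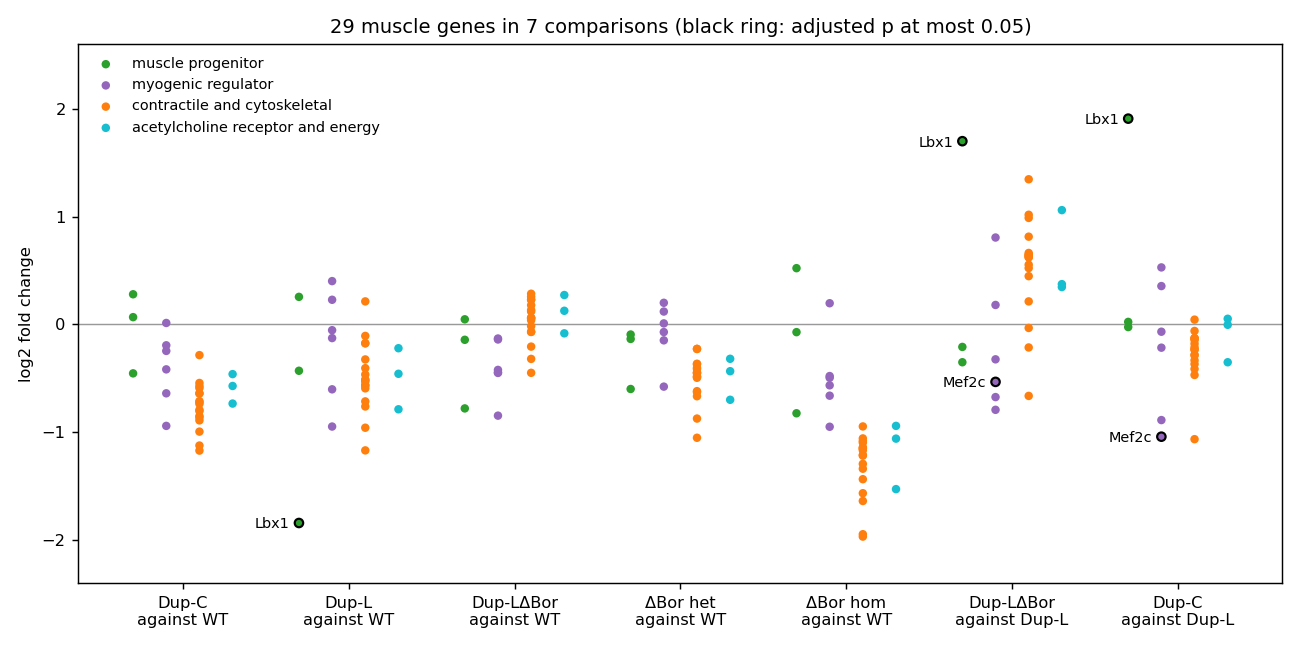
Log2 fold changes (vertical axis) of the 29 tested muscle genes in the 7 comparisons, 1 point a gene, coloured by group. Black rings mark adjusted p of at most 0.05: Lbx1 in 3 comparisons and Mef2c in 2. The orange contractile genes are all below 0 in Dup-C, ΔBor het and ΔBor hom against WT, and none of these has a ring.

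In Dup-C, no muscle gene passed the test against WT: 0 of 29 were called by edgeR, beside 0.00566% of all genes tested. At an unadjusted p under 0.05 there were 2, Mef2c and Myh7, beside 2933 of all 17655 genes tested. DESeq2 and limma on FPKM also gave 0, and DESeq2 gave an adjusted p to 2 members only. All 17 contractile genes lay lower than in WT, with a median log2 fold change of -0.74 (all genes -0.014), and -0.40 within the first batch, where WT 1 and 2 are the control. With Pitx1 as a covariate the median was -0.47, with 1 of the 17 above 0. WT 1, which is high in Pitx1, had 38.8 CPM of Mylpf and 151 CPM of Myh3. Dup-C had 46.0 and 43.9 CPM of Mylpf and 142 CPM of Myh3 in both libraries. In the fit over all 15 libraries, Myh7 was at -1.17 (SE 0.504, adjusted p 0.284 by edgeR), Acta1 at -1.12 (SE 0.526, 95% interval -2.31 to 0.068) and Myog at -0.19 (SE 0.354). Des was at -0.71 (SE 0.390). All 5 nerve and glia markers also had values below 0 (median -0.65), with sums of 99.3 and 102 CPM beside 122 to 147 CPM in WT, and all 5 erythroid markers tested had values above 0, none of the 10 passing. Their part in the muscle level was not tested. Of the other muscle lists, 0 of 11 progenitor and delamination genes, 0 of 28 differentiation genes and 0 of 21 tested sarcomere genes passed.

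In Dup-L, 1 of 29 members changed against WT, beside 32.4% of all genes tested. Lbx1, the homeobox gene of migrating limb muscle precursors, was at 1.29, 1.24, 1.18 and 1.39 CPM in WT 1 to 4 and at 0.436 and 0.271 CPM in Dup-L. The groups did not overlap, and the Dup-L values rest on 16 and 10 counts, beside 50 to 69 in WT. On the log2 scale Lbx1 fell by 1.84, with an SE of 0.465 (edgeR adjusted p 0.00821), and by 1.86 within the first batch (adjusted p 0.0338). The call was lost with Pitx1 as a covariate (-1.76, adjusted p 0.0937), with GC and length offsets (-1.23, adjusted p 0.0879) and without Dup-L 2 (-1.53, adjusted p 0.119).

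Outside these groups, low Lbx1 was also found in ΔBor het 1 (0.476 CPM, 18 counts) and Dup-LΔBor R5 (0.557 CPM, 21 counts). Their Pitx1, at 39.9 and 40.5 CPM, was the lowest among the 11 libraries high in it. The other ΔBor het library had 1.2 CPM and ΔBor hom 1.21 CPM. Pax3 and Pax7 did not follow Lbx1 in Dup-L: Pax3 had 1.58 and 1.63 CPM, inside the WT range of 0.972 to 1.68, at a log2 fold change of 0.26 (SE 0.310). Pax7 had 1.91 and 2.44 CPM, below the WT range of 2.68 to 3.12, at -0.43 (SE 0.326, adjusted p 0.338 by edgeR).

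Of all 17655 genes tested, 2922 fell and 2797 rose in Dup-L against WT, and the counts below stand beside these shares. Among other progenitor and delamination genes, 2 of 11 fell and none rose. These were Eya2, a transcriptional cofactor, by 0.65 (adjusted p 0.0258 by edgeR), and Vgll2, a muscle cofactor of TEAD proteins, by 0.83 (adjusted p 0.0466). Ryr1, the calcium release channel of muscle, fell by 0.83 (adjusted p 0.0154), 1 of 28 differentiation genes. Of 21 tested sarcomere genes 0 passed. The 17 contractile members had a median of -0.52, beside 0 for all genes, with 16 of 17 below 0. That median was -0.16 within the first batch, -0.23 without WT 4, -0.86 with Pitx1 as a covariate, and 0.035 with GC and length offsets and batch as a term. Cdh15 was at -0.95 (SE 0.377, adjusted p 0.0723 by edgeR), and DESeq2 called it besides Lbx1.

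Levels of other cell types moved in Dup-L too, where 32.4% of all genes tested were called. Of 5 nerve and glia markers 4 fell, and their summed level was 87.1 to 89.0 CPM beside 122 to 147 CPM in WT, with none at 0. Of 6 trunk and somite markers tested, 1 rose, Tbx18 (194 CPM in both Dup-L libraries, 120 to 166 CPM in WT), while 4 had values below 0 and the median was -0.13. All 5 surface ectoderm markers had values below 0, and 2 of them fell. Of 6 smooth muscle markers 1 fell, Smtn by 0.65 (adjusted p 0.00388 by edgeR). Smtn was higher by 0.55 in Dup-LΔBor than in Dup-L (adjusted p 0.00614 by edgeR). In Dup-LΔBor, 4 of the 5 nerve and glia markers fell against WT too, and Lbx1 was at -0.14 there (SE 0.313). Their part in the level of Lbx1 was not tested.

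**Figure D5:**
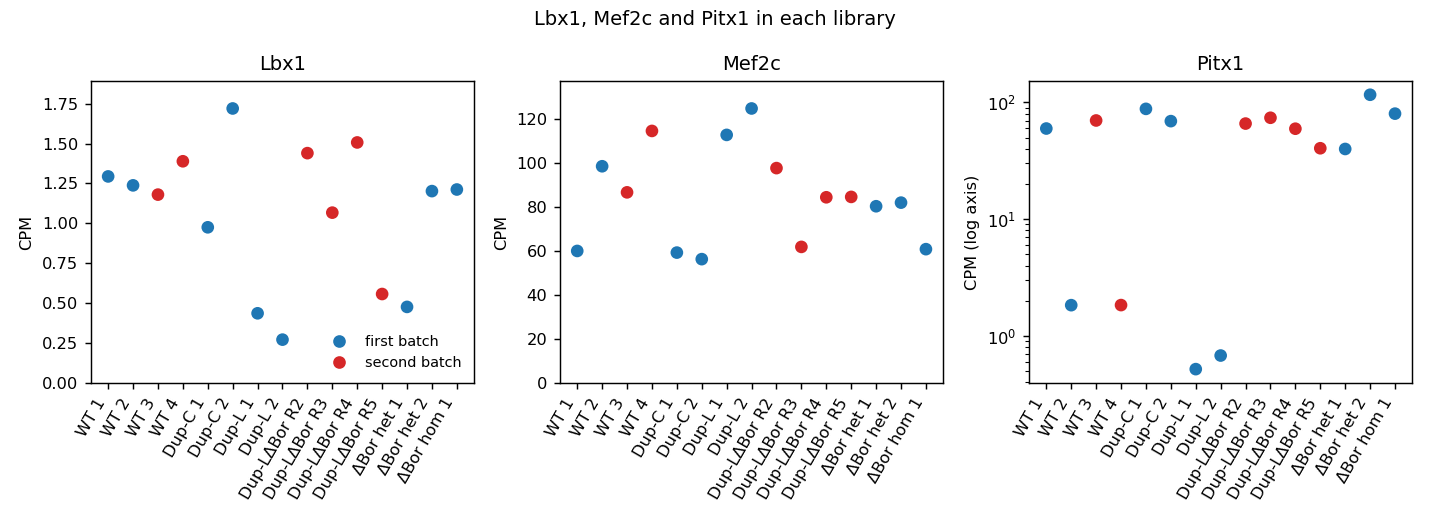
Level of Lbx1, Mef2c and Pitx1 in each library (vertical axes in CPM, the one of Pitx1 logarithmic), coloured by batch. Lbx1 is lowest in Dup-L (0.436 and 0.271 CPM), next to ΔBor het 1 and Dup-LΔBor R5, and the 4 libraries low in Pitx1 (WT 2, WT 4 and Dup-L) are the 4 highest in Mef2c.

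In Dup-LΔBor against WT, 0 of 29 members passed in edgeR, beside 3.85% of all genes, and limma on FPKM gave 0. Pax7 was the only member with an unadjusted p under 0.05, beside 4183 of all 17655 genes tested. It had 2.86, 1.23, 1.59 and 1.09 CPM in R2 to R5 beside 2.68 to 3.12 CPM in WT. Only R2 overlapped WT, and the log2 fold change was -0.78 (SE 0.263, adjusted p 0.0961 by edgeR). DESeq2 called Pax7, as did edgeR with GC and length offsets or without R2. The 17 contractile genes had a median of 0.061, with 11 higher and 6 lower, and -0.23 within the second batch, where 2 were higher. On leaving out 1 library the median ranged from -0.16 without R2 to 0.26 without WT 4. With Pitx1 as a covariate it was 0.30, with 16 of the 17 above 0. Acta1 was at 0.18 (SE 0.405, 95% interval -0.74 to 1.1). Of the other muscle lists 0 genes passed.

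Against Dup-L, 2 of 29 members changed in Dup-LΔBor, beside 43.6% of all genes tested. Lbx1 had 1.44, 1.07, 1.51 and 0.557 CPM in R2 to R5, all above Dup-L, and on the log2 scale it rose by 1.70, with an SE of 0.467 (edgeR adjusted p 0.00861). Mef2c, a MADS-box partner of the MyoD family that endothelium and other cells also make, had 97.5, 61.7, 84.3 and 84.4 CPM in R2 to R5 and 112.6 and 124.6 CPM in Dup-L. It fell by 0.53 (SE 0.198, adjusted p 0.0424 by edgeR), with no overlap. Batch as a term ended both calls (adjusted p 0.0955 for Lbx1, 0.0656 for Mef2c), as did GC and length offsets (0.0764 and 0.943), leaving out Dup-L 2 (0.110 and 0.201) and Pitx1 as a covariate (0.175 and 0.840), where Mef2c turned to 0.11. Mef2c also missed the threshold without Dup-L 1, R3, R4 or R5 (adjusted p 0.0630 to 0.0981).

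The contractile genes stood higher in Dup-LΔBor than in Dup-L, at a median of 0.62 (14 of 17 above 0), and at -0.008 with batch as a term, -0.24 with GC and length offsets and batch, and 1.18 with Pitx1 as a covariate. Every Dup-LΔBor library is of the second batch and every Dup-L library of the first, so that only WT links them. Acta1 was at 1.35 (SE 0.534, adjusted p 0.0619 by edgeR). Without Dup-LΔBor R5, 6 members passed, all higher: Lbx1, Cdh15, Acta1, Tnnc2, Neb and Chrng. Among 28 other differentiation genes, 2 rose and 2 fell, beside 3794 and 3910 of all 17655 genes tested. The lowest adjusted p belonged to Ryr1, which rose by 1.26 (adjusted p 0.000889 by edgeR), and Trdn (triadin) and Mstn (myostatin, a restraint on muscle growth), which fell by 1.53 and 0.90. Of the other sarcomere genes, Actn3, an actin-crosslinking alpha-actinin of fast fibres, rose by 0.77, and Tpm1, a tropomyosin, fell by 0.39.

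Dup-C and Dup-L, both of the first batch, differed in the same 2 genes of 29, beside 15.1% of all genes tested. Mef2c was at 59.2 and 56.2 CPM in Dup-C, the lowest pair of the series, and against Dup-L its log2 fold change was -1.04 (SE 0.236; edgeR adjusted p 0.0155). Lbx1, at 0.975 and 1.72 CPM in Dup-C, was higher by 1.91 (SE 0.510, adjusted p 0.0252 by edgeR). GC and length offsets ended both calls (adjusted p 0.0890 for Lbx1 and 0.124 for Mef2c by edgeR), as did Pitx1 as a covariate (0.983 for both). Over all genes tested, 2674 were called in the fit as reported, 237 with the offsets and 0 with Pitx1. These losses were thus not particular to the 2 genes. Both calls were also lost when any 1 of the 4 libraries was left out. Such a fit leaves 1 library in a group and cannot decide whether they hold. Across all alternatives the log2 fold change was 0.783 to 2.288 for Lbx1 and -1.112 to -0.36 for Mef2c. Endothelial markers summed to 242 and 245 CPM in Dup-L, 198 and 244 in Dup-C and 270 to 343 in Dup-LΔBor, and their part in Mef2c was not tested. Tnnt3 was at -1.06 (SE 0.516, adjusted p 0.174 by edgeR), and the 17 contractile genes had a median of -0.23, which turned to 0.37 with Pitx1 as a covariate and was -0.061 without Dup-L 2.

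The boundary deletion on its own gave no call among the muscle genes in edgeR. In ΔBor het, 0 of 29 members passed in edgeR, beside 4.03% of all genes, while DESeq2 and limma on FPKM gave 0. None had an unadjusted p under 0.05, beside 4573 of all 17655 genes tested. The 2 libraries lay apart, with Cdh15 at 8.94 and 19.3 CPM and Myod1 at 12.8 and 26.5 CPM. Contractile genes had a median of -0.45, all 17 below 0, and of -0.22 within the first batch. It was -0.85 without ΔBor het 2, -0.22 without ΔBor het 1 and -0.25 without WT 4. With Pitx1 as a covariate it was -0.20, with 3 of the 17 above 0. All 5 nerve and glia markers (sums of 81.8 and 108 CPM, 122 to 147 CPM in WT) and all 5 surface ectoderm markers (483 to 555 CPM, 603 to 945 CPM in WT) had values below 0 too. Of these, Ngfr fell by 0.68 and Krt14 by 0.70, and their part in the muscle level was not tested. Among 21 other sarcomere genes tested, Mybpc2, fast myosin-binding protein C, fell by 1.46 (adjusted p 0.0431 by edgeR).

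In ΔBor hom, 0 of 29 members passed in edgeR, beside 1.27% of all genes, in a group of 1 library that is assumed to vary like the others. At an unadjusted p under 0.05 there were 11, all contractile or receptor genes, beside 4697 of all 17655 genes tested. Limma on FPKM gave 0. DESeq2 called Acta1, Myh7 and Tnnt1 of 27 members, beside 2196 calls over all genes. The 17 contractile genes had a median of -1.21, all below 0, and of -1.02 within the first batch. Myh7 was at -1.97 (SE 0.725, adjusted p 0.118 by edgeR), with 5.67 CPM beside 12.2 to 30.7 in WT. Acta1 was at -1.94 (SE 0.750, adjusted p 0.133). Among regulators and progenitors, Cdh15 was at -0.95 (SE 0.5), Pax7 at -0.82 (SE 0.444), Myog at -0.66 (SE 0.479) and Myod1 at -0.49 (SE 0.448). Pax3 was at 0.52 (SE 0.390), with 1.93 CPM beside 0.972 to 1.68 in WT. The summed level of 6 erythroid markers was 6161 CPM in ΔBor hom and 1734 to 4920 CPM in WT, 0 of the 5 tested having passed. All 5 nerve and glia markers had values below 0 (median -0.99, sum 72.5 CPM), of which Ngfr fell by 1.15, and Krt14 of the surface ectoderm fell by 0.96. Their part in the lower muscle level was not tested.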

How the data were processed

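PolyA RNA of 15 limb bud libraries was analysed. The count table and the FPKM table were deposited by the authors. Reads were aligned to mm9 with STAR, and DESeq2 and bedtools 2.17.0 were also used, per the submitters' processing notes. Not given in the sources used here: the counting tool, its annotation, its use of strand and its treatment of reads with several matches. The deposited FPKM values were scaled for gene length and depth by the authors; they were used to compare levels between genes and in an alternative test.

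Columns were matched to samples by their names. The 4 Dup-LΔBor columns (R2 to R5) show only their group, and the ΔBor hom column is numbered 3 where its label has 1. R4 and R5 carry the same library number, 6758, but their counts differ (mean chi-square per gene 31.7, beside 7.12 to 41.5 for the other pairs of that group), so both were kept. The 2 fingertip samples of day 17.5 are not analysed here.

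Genes were tested with edgeR 4.0.16 in R 4.3.3 (filterByExpr with the groups, TMM normalization, a two-sided robust quasi-likelihood test over 15 libraries in 6 groups), with Benjamini-Hochberg adjustment over 17655 genes and a threshold of 0.05; 10244 of 34682 genes had 0 counts throughout. CPM values are counts scaled to the TMM-normalized library size, on the log2 scale with 0.5 counts added. Intervals are 95%, on 9 residual degrees of freedom. The script was tested on simulated data.

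Alternatives were no filter, upper-quartile scaling, DESeq2 1.42.0, limma 3.58.1 on log2(FPKM + 1) or log2(FPKM + 0.1), batch as a term or fits within a batch, Pitx1 as a covariate, a replicate block, leaving out each library, and offsets for GC content and length. The offsets used splines with 5 degrees of freedom and covered 91.4% of the genes tested and all 29 members. Offsets joined with batch, GC-adjusted ratios, the survey of ratios to Myog and Myod1 and the test of batch within WT were chosen after seeing the data. Permutation tests used scipy 1.17.1.

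The 31 members were examined in every comparison, with Pitx1, Tbx4 and Tbx5. Of the genes past the threshold in each other list at most 3 are named, those with the lowest adjusted p. Prrx1 and markers of heart and smooth muscle are named for their level, outside this rule. Some results for genes of these lists are not reported here. The members and lists were chosen with earlier results of these data known.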

Additional observations from a re-analysis of the deposited data

How the results depend on the processing

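Of 3437 single-gene values recomputed under an alternative, 3383 stayed on their side of the threshold, 19 moved past it and 34 lost it. Of the 3437, 300 had another sign than in the fit as reported, spread over 104 of 203 pairs of gene and comparison. Of values past the threshold 1 turned, Mef2c in Dup-LΔBor against Dup-L, at 0.106 with Pitx1 as a covariate. Members past the threshold in Dup-L against WT (1) numbered 0 with Pitx1 as a covariate, 0 with GC and length offsets, 0 with these and batch, 2 with DESeq2, and 0 (without Dup-L 2) to 2 (without WT 4) when 1 library was left out. In Dup-LΔBor against WT (0) they numbered 1 with GC and length offsets and 1 with DESeq2, and 0 to 1 (without R2) on leaving out 1 library; each time it was Pax7. In ΔBor hom (0) there were 3 with DESeq2 and 0 to 2 (without WT 1: Mef2c and Tnnc2) on leaving out 1 library, and in Dup-C against WT 0 to 1 (without WT 1: Mef2c). Without WT 1, calls over all genes also rose, from 225 to 2750 in ΔBor hom and from 1 to 1640 in Dup-C. In Dup-LΔBor against Dup-L (2) there was 1 with no count filter, 1 with limma on log2(FPKM + 1) without a filter, 0 with batch as a term, with Pitx1, with GC and length offsets and with these and batch, and 0 (without Dup-L 2) to 6 (without R5) on leaving out 1 library. In Dup-C against Dup-L (2) there was 1 with limma without a filter and 0 with Pitx1, with GC and length offsets and with these and batch. With Pitx1, 0 of all genes tested were called there. The calls were also lost when any 1 library was left out, which leaves 1 library in a group and cannot decide them. The cause was not tested. ΔBor het kept a count of 0 throughout.

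Across all 17655 genes, Dup-L against WT had 5719 calls, 1081 with GC and length offsets, 145 with these and batch, and 0 with Pitx1 as a covariate. Replicate numbers did not pair the samples: the deviations of samples with the same number correlated over 13928 genes at r from -0.231 to 0.123. With the replicate block, Dup-L against WT kept 1 member (Lbx1, log2 fold change -1.85, adjusted p 0.0454 by edgeR) and 1374 calls in all. No paired analysis was possible for Dup-LΔBor and ΔBor hom because the numbers in the Dup-LΔBor columns match no label and ΔBor hom is 1 library. Lbx1, on 10 to 74 counts a library, Myf6 (2 to 21) and Ckm (1 to 11) are limited by depth.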
